A study of Mus musculus with 36 samples.

Results

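Genes of the chromosomal passenger complex and the spindle checkpoint were followed in the hypothalamus of mice given TNFα, IL-6 or both: Incenp, Aurkb, Birc5 and Cdca8 of the complex, and Mad2l1, Bub1, Bub1b, Bub3 and Ttk of the checkpoint. These 9 are among 18820 genes measured on the arrays. They were taken by symbol, with the transcript cluster of highest mean where a gene had several, and the set was chosen by the small p values of Incenp and Mad2l1 in treated groups. Values of Incenp and Mad2l1 are therefore given as a description, with no test.

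The data are 36 Affymetrix Mouse Gene 1.1 ST arrays, 1 per mouse and 6 per group. All mice were male C57BL/6 and were killed 5 h after 1 intraperitoneal injection of 50 µl. The treated groups received 15 pg TNFα (TNF), 50 pg IL-6 (named IL-6 Low), 800 pg IL-6 (named IL-6 High), TNFα with the lower IL-6 dose (named TNF + IL-6 Low) or TNFα with the higher (named TNF + IL-6 High), and Control mice received saline. All groups share strain, sex, diet and the injection route. The labels give no age. Of 12 mice per group, 6 were used for arrays. TNF replicate 4 stood apart: it correlated with the remaining arrays at a median of 0.27, where each of those 35 had 0.972 to 0.988, and on it the members lay between 5.92 and 7.01 on the log2 scale, including Bub3 at 6.21 and Ttk at 5.92. It was left out, which leaves 5 TNF arrays and 35 in all. Of 10 hypothalamic marker genes listed, 9 were on the array, and these 9 exceeded an intensity of 20 on all 35 arrays, with log2 medians of 10.22 for Oxt (oxytocin), 9.72 for Avp (vasopressin) and 9.47 for Hcrt (orexin).

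In dividing cells the chromosomal passenger complex brings the kinase Aurora B to centromeres, where it releases kinetochores that are wrongly attached to the spindle. The spindle checkpoint holds back the anaphase-promoting complex until every kinetochore is attached. Most cells of the adult hypothalamus are postmitotic neurons and glia, with dividing progenitors a small minority, and transcripts of these genes rise mainly in late S, G2 and M phase. A whole-tissue array cannot tell fewer cells that carry a transcript from less of it per cell.

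Values are log2 intensities summarised by RMA, which is not a count and has no true zero, and levels were not set against each other between genes. A gene counted as measured where its intensity exceeded 20 on at least 3 arrays, which 15049 genes did. Of the 9 members, 6 passed: Incenp, Mad2l1, Birc5, Bub1b and Bub3 on all 35 arrays, and Aurkb on 13. Cdca8, Bub1 and Ttk were under 20 on all 35 arrays and were not tested.

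Promoter windows from RefSeq on GRCm38.p6 (250 bases before to 50 after the start) were held for 7 members, in 8 windows since Bub3 has 2 that overlap. None was held for Incenp or Aurkb. The windows of Mad2l1, Birc5 and Bub1b and the first of Bub3 are printed. They are shown because cell-cycle genes are known for the CCAAT box and the cell-cycle homology region (CHR, TTTGAA), and because STAT elements (TTCNNNGAA) and NF-kB sites are the recognition sequences of factors downstream of IL-6 and TNFα. Each motif was searched on both strands, and overlapping matches were kept. Matches are in capitals:
Mad2l1, chr6:66534971-66535270 (+ strand): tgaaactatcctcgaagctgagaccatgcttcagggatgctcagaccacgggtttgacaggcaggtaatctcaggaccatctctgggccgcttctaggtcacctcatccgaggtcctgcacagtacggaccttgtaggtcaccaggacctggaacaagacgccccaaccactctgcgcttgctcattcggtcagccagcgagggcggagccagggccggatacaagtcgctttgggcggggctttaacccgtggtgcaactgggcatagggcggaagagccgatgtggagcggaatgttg
Birc5, chr11:117848987-117849286 (+ strand): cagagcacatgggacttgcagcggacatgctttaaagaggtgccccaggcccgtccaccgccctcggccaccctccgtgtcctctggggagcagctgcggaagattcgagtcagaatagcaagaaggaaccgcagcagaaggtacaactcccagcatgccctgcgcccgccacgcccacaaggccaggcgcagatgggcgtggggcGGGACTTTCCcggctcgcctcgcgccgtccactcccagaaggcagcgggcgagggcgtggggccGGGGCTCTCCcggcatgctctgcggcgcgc
Bub1b, chr2:118597961-118598260 (+ strand): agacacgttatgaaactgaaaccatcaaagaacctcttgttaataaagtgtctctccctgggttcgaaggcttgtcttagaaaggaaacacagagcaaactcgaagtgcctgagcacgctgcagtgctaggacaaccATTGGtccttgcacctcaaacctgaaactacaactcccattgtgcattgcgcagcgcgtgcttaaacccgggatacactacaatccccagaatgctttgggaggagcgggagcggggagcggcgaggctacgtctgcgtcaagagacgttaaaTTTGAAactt
Bub3, chr7:131560120-131560419 (+ strand): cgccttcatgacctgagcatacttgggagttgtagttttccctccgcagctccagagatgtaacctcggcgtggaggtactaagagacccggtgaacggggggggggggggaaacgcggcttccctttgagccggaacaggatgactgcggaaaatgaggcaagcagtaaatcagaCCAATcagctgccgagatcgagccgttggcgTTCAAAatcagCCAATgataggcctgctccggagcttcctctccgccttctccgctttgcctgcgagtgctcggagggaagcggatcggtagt

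The window of Mad2l1, whose product binds Cdc20 to hold back anaphase, has no match to any of the 4 motifs. Birc5 (survivin) has 2 matches to the NF-kB consensus, at 44 bases before and 21 after the start, and no other. Bub1b (BubR1, part of the complex that inhibits the anaphase-promoting complex) has 1 CCAAT box and a CHR. The Bub3 window shown has 2 CCAAT boxes and a CHR. Over the 8 windows, CCAAT was in 6 and CHR in 5, against 37.4% and 17.9% of all 32851 RefSeq windows of this length. Both Bub3 windows hold the same CCAAT and CHR sites, so these counts are of windows and not of genes. A match to the NF-kB consensus was in 1 of 8 (4.51% of all windows) and a STAT element in 0 of 8 (8.3%). A match is a description of letters and not a site.

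Incenp (transcript cluster 10465861), the scaffold of the chromosomal passenger complex, was higher in the TNF arrays than in all Control arrays. Its values were 5.74, 5.71, 5.78, 5.76 and 5.96 in TNF replicates 1, 2, 3, 5 and 6. In Control replicates 1 to 6 they were 5.12, 5.64, 5.18, 5.53, 5.21 and 5.51. The groups do not overlap, and Control falls into 3 arrays at or under 5.21 and 3 at or over 5.51. Among all genes tested, 0.126% lay wholly above Control in TNF. Each other group overlapped Control. The lowest, median and highest values with IL-6 alone were 5.48, 5.61 and 5.79 at the low dose and 5.47, 5.67 and 5.76 at the high dose. With TNFα added they were 5.29, 5.63 and 5.72 at the low and 5.52, 5.66 and 5.80 at the high dose of IL-6. Wholly above Control lay 0.00664% and 0.0199% of genes at the low and high dose of IL-6 alone, and 0.113% and 0.0332% with TNFα added. All 29 treated arrays exceeded Control replicates 1, 3 and 5, and 19 of 29 exceeded the highest Control array. No share of all genes was computed for these counts, which the choice of the gene favoured.

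The mean level of Incenp was 5.79 ± 0.10 in TNF (SD, n = 5) and 5.36 ± 0.22 in Control (SD, n = 6), a log2 difference of 0.43 (SE 0.09). The differences from Control were 0.25 and 0.27 at the low and high dose of IL-6 alone, 0.22 and 0.29 at these doses with TNFα (SE 0.09 each), and 0.29 (SE 0.07) for the mean of the 5 treated groups. All 5 share the 6 Control arrays, so a high or low Control array moves all of them together. Leaving out Control replicate 1 gave 0.24 for the mean of the 5, and leaving out Control replicate 2 gave 0.35. In the order of group means, only the step of 0.22 between TNF + IL-6 Low and Control was over the residual SD of 0.14. A large step from Control was favoured by the choice of the gene, so this is a description and no test. Array names begin with E, F, G or H, and within these letters the mean of the 5 Incenp differences was 0.50, 0.25, 0.26 and 0.25, with 1 Control array each in E and H and 2 each in F and G.

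**Figure D1:**
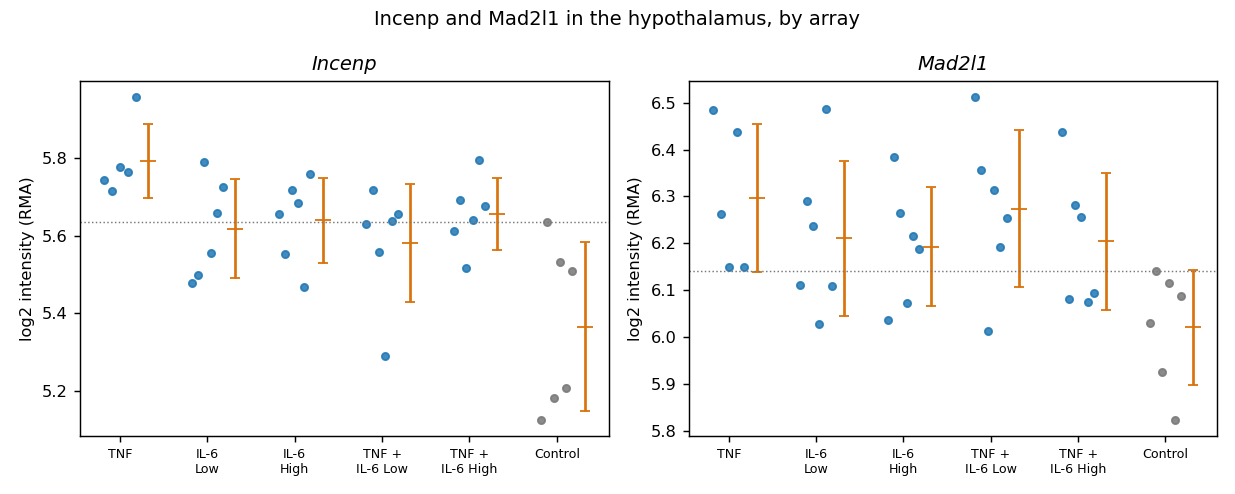
Log2 RMA intensity of Incenp and Mad2l1 on each array by group, with the group mean and SD in orange and the highest Control array as a dotted line. All 5 TNF arrays lie above the line for both genes, and the Control arrays of Incenp stand in a lower and an upper set of 3.

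Marker lists of 10 cell types were set beside the Control arrays, which all 5 differences share. The mean log2 deviation of 9 midbrain dopaminergic markers (a list chosen after the values were seen) was -0.52, 0.30, -0.22, 0.57, -0.15 and 0.02 on Control replicates 1 to 6, negative on the 3 arrays low in Incenp. That of 9 hypothalamic neuron markers was 0.15, -0.04, 0.07, -0.08, 0.33 and -0.44, positive on those 3 arrays. The signs of the other lists did not split the Control arrays in this way. For 8 meningeal fibroblast markers the deviations were 0.79, -0.10, -0.56, 0.76, 0.09 and -0.98. The summed intensity of the dopaminergic list, all 9 of which passed the minimum, ran from 1567 to 4920 in TNF and from 1372 to 3413 in Control. The sum of the hypothalamic list was 2739 to 4371 in TNF and 2671 to 5414 in Control. Other lists also differed in their mean between TNF and Control, with sums that overlapped. The sum of 5 cerebellar granule cell markers was 261 to 1511 in TNF and 310 to 386 in Control. The medians of this sum were close, at 356 in TNF and 337 in Control. The sum of 4 blood cell genes, of 10 listed, was 119 to 266 in TNF and 89.0 to 193 in Control. The sum of 8 meningeal fibroblast markers was 647 to 1182 in TNF and 583 to 1970 in Control. The log2 differences of single genes, averaged over each list, were 0.71 (cerebellar), 0.45 (blood) and -0.40 (meningeal) in TNF. The meningeal average was negative in all 5 treated groups. Over the 35 deviations from group means, Incenp had r = 0.27 with the dopaminergic list and -0.41 with the hypothalamic list, given as a description with no test. Over the 10 lists r ran from -0.41 to 0.27 for Incenp and from -0.47 (anterior pituitary) to 0.55 (microglia) for Mad2l1. The part of these cell types in the Incenp difference was not tested.

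Mad2l1 (transcript cluster 10538832) was also above every Control array in TNF, by a smaller margin. Of all genes tested, 0.126% lay wholly above Control in TNF, and the choice of the gene favoured this. Its values were 6.48, 6.26, 6.15, 6.44 and 6.15 in TNF and 6.03, 6.14, 5.93, 6.11, 5.82 and 6.09 in Control. TNF replicates 3 and 6, both at 6.15, lay just over the highest Control array. With IL-6 alone the lowest, median and highest were 6.03, 6.17 and 6.49 at the low dose and 6.04, 6.20 and 6.38 at the high dose. With TNFα added they were 6.01, 6.28 and 6.51 at the low and 6.07, 6.18 and 6.44 at the high dose. Those 4 groups overlapped Control, and 20 of 29 treated arrays exceeded its highest array. The share of all genes with such a count was not computed.

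The mean level of Mad2l1 was 6.30 ± 0.16 in TNF (SD, n = 5) and 6.02 ± 0.12 in Control (SD, n = 6), a log2 difference of 0.28 (SE 0.09). The other differences were 0.19 and 0.17 at the low and high dose of IL-6 alone and 0.25 and 0.18 at these doses with TNFα (SE 0.09 each), with 0.21 (SE 0.07) for the mean of the 5. In the order of means only the step of 0.17 between IL-6 High and Control was over the residual SD of 0.15. Here too the step was favoured by the choice of the gene and is a description. Within the letters E, F, G and H the mean of the 5 differences was 0.29, 0.20, 0.28 and 0.07. The summed intensity of 5 microglia markers, of 6 listed, was 513 to 679 in TNF and 537 to 611 in Control. Their mean log2 difference from Control was 0.12 in TNF and 0.04 and 0.01 at the low and high dose of IL-6 alone. With TNFα added it was -0.06 and 0.04 at these doses. The mean deviation of these markers had r = 0.55 with that of Mad2l1, and for 6 oligodendrocyte progenitor markers r was 0.47. Of all genes, 6.07% passed an r of 0.5 in size with Mad2l1. The part of microglia in the Mad2l1 difference was not tested.

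A second transcript cluster (10453715) is annotated to Mad2l1, with a median of 4.39 and a range of 3.45 to 4.87, and its differences were smaller in 5 of 5 groups. Its log2 difference from Control was -0.02 in TNF (SE 0.21), 0.18 and -0.01 at the low and high dose of IL-6 alone, and -0.04 and 0.07 at these doses with TNFα (SE 0.20 each). Each SE is larger than that of the cluster used. Of the 10 single-gene clusters nearest in number, 9 name genes that RefSeq places on chromosome 6 for the cluster used, which is the chromosome of the promoter shown. For 10453715, 1 names a gene on chromosome 6 and 6 name genes on chromosome 18. The position of neither cluster itself was analysed here, since nearness in number is not a position. Which cluster measures Mad2l1 better was not settled. The deviations of the clusters had r = 0.50 over 35 arrays. With the mean of both, the Mad2l1 difference was 0.13 in TNF and 0.13 for the mean of the 5 groups.

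**Figure D2:**
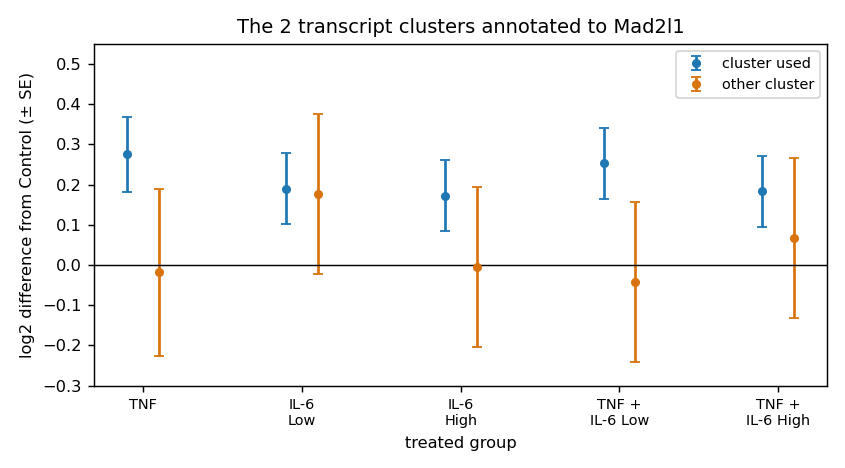
Log2 difference from Control, with its SE, of the 2 transcript clusters annotated to Mad2l1 in each treated group. The cluster used lies between 0.17 and 0.28 and the other between -0.04 and 0.18.

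No difference of Aurkb or Birc5 passed the threshold, and Cdca8 was not tested. Those of Aurkb, and of Bub1 under the minimum, lay below 0 in all 5 groups, which share the 6 Control arrays. The share of all genes with the same sign in all 5 was not computed. Without TNF + IL-6 Low replicate 4, the Aurkb difference in that group was 0.003. Aurkb (Aurora B, the kinase that Incenp activates) had 4.24, 4.10, 4.05, 4.30 and 4.15 in TNF and 4.44, 4.26, 4.45, 4.36, 4.53 and 4.24 in Control. All 5 TNF arrays were below the Control mean and 4 of them below the lowest Control array, and its intensity exceeded 20 on 0 TNF and 4 Control arrays. The difference was -0.21 (SE 0.09), with an unadjusted p of 0.0222 and an adjusted p of 0.911 by limma. An unadjusted p under 0.05 was found for 5.29% of all genes tested, with 2.13% lower and 3.16% higher. The Aurkb difference was -0.10 and -0.12 at the low and high dose of IL-6 alone and -0.04 and -0.09 at these doses with TNFα, none past the threshold. With all 36 arrays the TNF difference was 0.10.

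Birc5 (survivin), which ties the complex to centromeres, differed from Control by 0.10 in TNF and 0.13 in IL-6 Low and by -0.01 in the other 3 groups (SE 0.12 to 0.13). Its values were 4.94 to 5.19 in TNF and 4.59 to 5.11 in Control, which overlap. Cdca8 (borealin) was under the minimum on every array, with levels of 3.25 to 3.57 in TNF and 3.19 to 3.63 in Control. Of the checkpoint genes, Bub1b had 4.50 to 5.29 in TNF and 4.56 to 5.12 in Control, with a TNF difference of 0.09, and 0.08 at either dose of IL-6 alone and 0.15 and -0.05 at the low and high dose with TNFα (SE 0.11 to 0.12). Bub3, the binding partner of Bub1 and Bub1b, had 8.73 to 9.21 in TNF and 8.97 to 9.08 in Control. Control was narrow for Bub3 (SD 0.04, n = 6), and 7 treated arrays lay above it and 12 below. Its difference was -0.13 (SE 0.08) in TNF + IL-6 Low, with an adjusted p of 0.575 by limma, and -0.05 without replicate 5 of that group. Bub1, the kinase that brings Bub1b to kinetochores, and Ttk (Mps1), the kinase that starts the checkpoint signal, were under the minimum on all 35 arrays. Bub1 had 2.55 to 3.05 in TNF and 2.82 to 3.44 in Control, and Ttk had 3.03 to 3.14 in TNF and 3.08 to 3.25 in Control, which overlap for both.

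**Figure D3:**
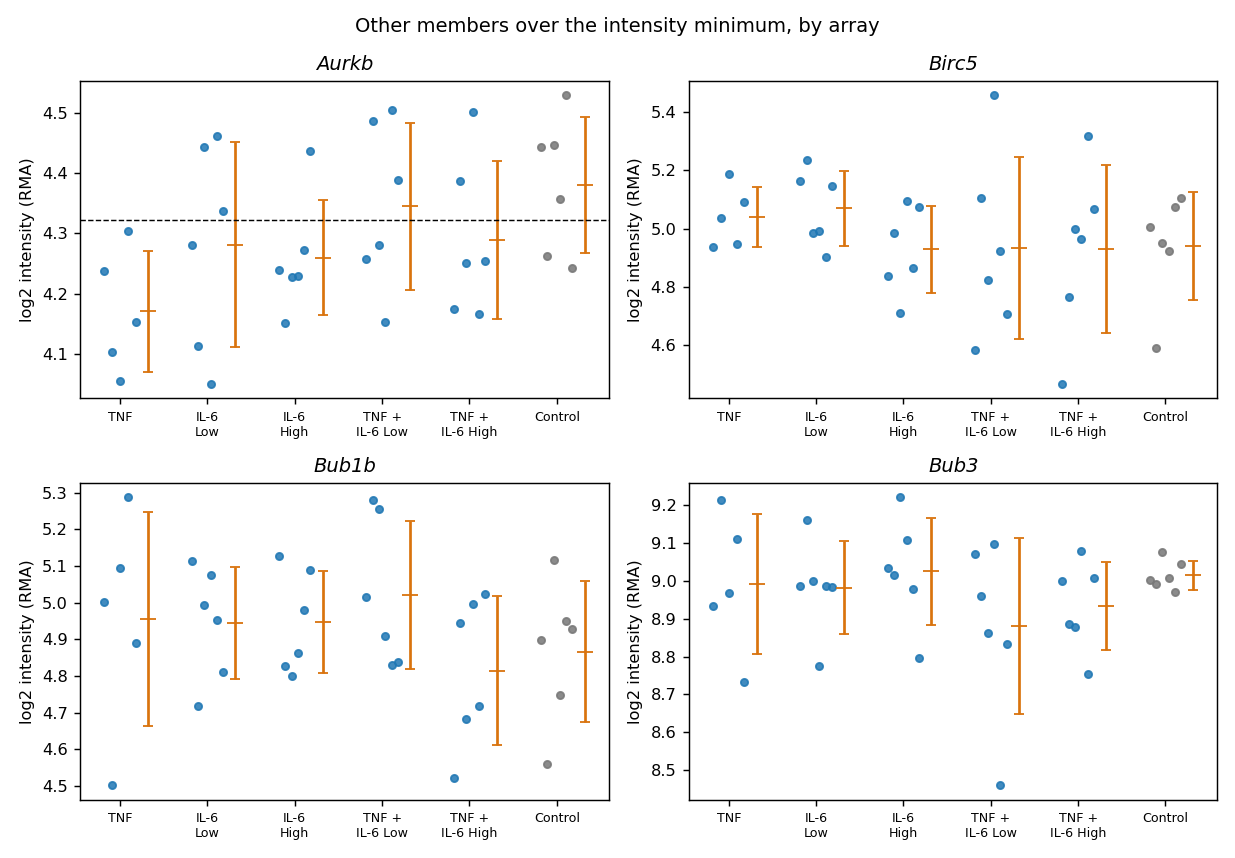
Log2 RMA intensity of Aurkb, Birc5, Bub1b and Bub3 on each array by group, with mean and SD in orange and the intensity minimum of 20 as a dashed line for Aurkb. The treated arrays overlap Control in each panel, and Control is narrowest for Bub3.

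**Figure D4:**
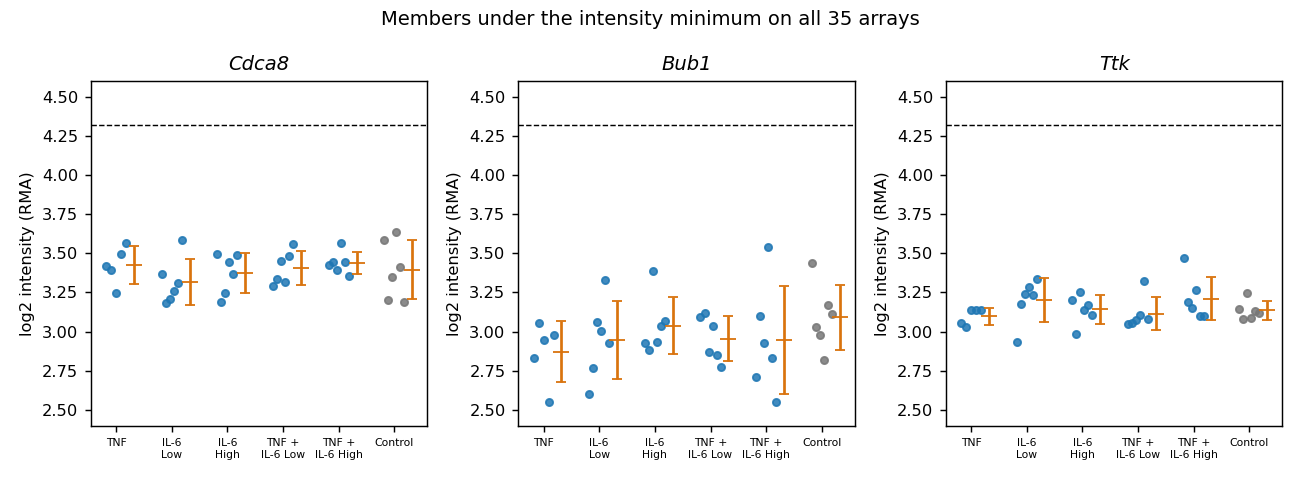
Log2 RMA intensity of Cdca8, Bub1 and Ttk on each array by group, with mean and SD in orange and the intensity minimum of 20 as a dashed line. All values lie under the line.

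Across the 7 members not used in the choice, 4 were tested and 0 had an adjusted p under 0.05 by limma in any comparison with Control, in the mean of the 5 groups, among the 5 groups or for either departure from additive effects, where 0% of all genes were called. Their adjusted p ran from 0.911 to 0.989 in TNF and from 0.575 to 0.988 in TNF + IL-6 Low, and was 1 in the other comparisons with Control. Their median log2 difference in TNF was 0.03, against 0.01 for all genes tested. An unadjusted p under 0.05 was found for 1 of the 4 in TNF, Aurkb, and for 0 of 4 in each other treated group. Of all genes, 1.4% and 2.07% had one at the low and high dose of IL-6 alone and 9.58% and 2.05% at these doses with TNFα. For the mean of the 5 groups, 0 of 4 had one (3.08% of all genes), and likewise among the 5 groups (3.34%) and for the departure with IL-6 High (4.01%). For the TNF and IL-6 Low departure from additive effects, Aurkb had 0.27 (SE 0.12), with an adjusted p of 0.991 by limma, and 3.28% of all genes had an unadjusted p under 0.05. No member reached a fold of 1.5 in any group. Of all genes, 0.213% did in TNF, 0.0266% and 0.133% at the low and high dose of IL-6 alone, and 0.279% and 0.0664% at these doses with TNFα.

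**Figure D5:**
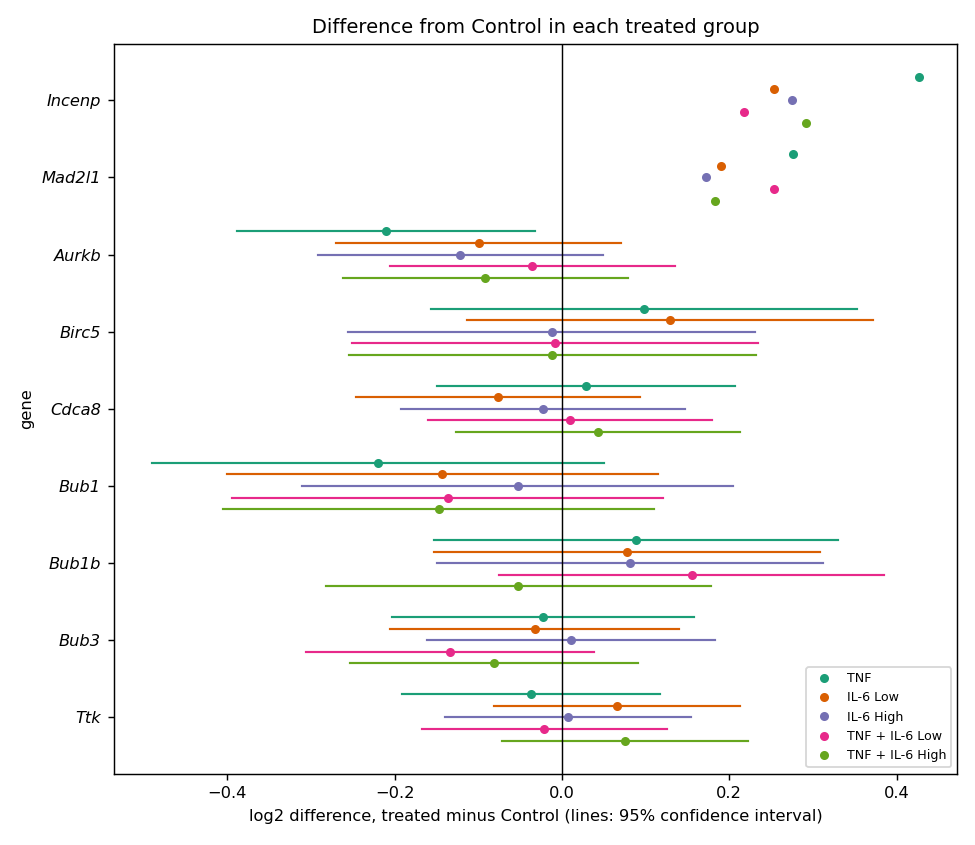
Log2 difference from Control of the 9 genes in each treated group, with its 95% confidence interval as a line for the 7 genes not used in the choice. Incenp lies between 0.22 and 0.43 and Mad2l1 between 0.17 and 0.28, drawn with no interval since both were chosen on these values, and the other 7 genes lie between -0.22 and 0.15.

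For the 7 genes other than Incenp and Mad2l1, no step between neighbours in the order of group means was over the residual SD. For Incenp and Mad2l1 a large step from Control was favoured by their choice, so the sets are not compared on this. Within groups, no pair of members was closely alike. Over the 36 pairs of members, the r of their deviations from group means over 35 arrays ran from -0.36 to 0.46, with 19 positive and none past 0.5 in size. Incenp had r = 0.05 with Mad2l1 and 0.13 with Aurkb, its partner. The genes most like Incenp were Ocln (a tight junction protein, 0.63), Phactr3 (0.63), Trpc1 (a cation channel, 0.62), Mtmr11 (0.60) and Ldlrad4 (0.60). For Mad2l1 they were Ddit4 (an inhibitor of mTOR signalling, 0.75), Hsd17b11 (0.73), Lcmt1 (0.73), Wdr61 (0.71) and Aimp1 (0.71). None of these 10 is in a mitosis list. The top percentile of r over all genes began at 0.48 for Incenp and 0.60 for Mad2l1. These are descriptions over arrays that share the 6 groups' means as their base.

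Other genes of the pathway were read from 6 lists (other checkpoint, kinetochore, anaphase-promoting complex, cohesin, mitotic and DNA replication genes), of which 77 of 121 were tested and 0 had an adjusted p under 0.05 by limma. In TNF, 5 were higher and 1 lower at an unadjusted p under 0.05, 7.79% of the 77, against 5.29% of all genes. In TNF + IL-6 Low, 7 were higher and 6 lower, 16.9% against 9.58%, and for the mean of the 5 groups 3 and 1, 5.19% against 3.08%. With IL-6 alone the share was 1.3% at the low dose (1.4% of all genes) and 3.9% at the high dose (2.07%), and it was 2.6% in TNF + IL-6 High (2.05%). In TNF, 57 of the 77 lay above Control, and 55.4% of all genes did. With IL-6 alone 32 of the 77 lay above Control at the low and 48 at the high dose, and with TNFα added 40 at the low and 31 at the high dose. The median log2 difference of all genes was -0.008, 0.005, -0.018 and -0.024 in these groups, in that order. The share of all genes above Control was computed for TNF only, so counts above Control in other groups have no background share and are a description. Of 8 tested checkpoint genes, 7 lay above and 1 below Control in TNF. At the low IL-6 dose, with or without TNFα, 4 lay above and 4 below, and at the high dose 5 lay above and 3 below, again with or without it. At an unadjusted p under 0.05 this list had 2 genes, both lower, in TNF + IL-6 Low, among them Mad1l1 at -0.20 (SE 0.07), with an adjusted p of 0.511 by limma. Cdc20, the activator that the checkpoint holds back, had a TNF difference of 0.14 (SE 0.11). Without TNF replicate 2 it was 0.08, and without Control replicate 5 it was 0.21. Mad1l1, which recruits Mad2l1 to kinetochores, had 0.01 (SE 0.08) in TNF, and Plk1, a mitotic kinase, had -0.01 (SE 0.14). Mad2l1bp, Zw10, Fzr1, Anapc1, Aurka and Mcm2 lay between -0.09 and 0.02 in TNF, none past the threshold. Ccnb1 was not analysed here.

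Genes of dividing cells differed in how many arrays measured them. Plk1, Aurka, Mcm2 and Pcna exceeded an intensity of 20 on all 35 arrays, Cenpa on 30 and Cdc20 on 24. Top2a, Cdk1, Ndc80, Knl1, Haspin and Sgo1 did on 0 arrays and Trip13 on 1, and Mki67, the marker of cycling cells, did on 20. The Mki67 difference was 0.26 (SE 0.15) in TNF and 0.26 (SE 0.11) for the mean of the 5 groups, and 0.43 (SE 0.14) in TNF + IL-6 Low, with adjusted p values of 0.911, 1 and 0.511 by limma. With IL-6 alone Mki67 differed by 0.06 at the low and 0.35 at the high dose (SE 0.14 each). Cdk1 and Top2a, both under the minimum and not tested, went opposite ways. Cdk1 lay between -0.23 and -0.11 in the 5 groups and Top2a between 0.02 and 0.29. For the mean of the 5, Aurka had -0.07 (SE 0.08) and Plk1 0.01 (SE 0.11), so these genes shared no common direction. The TNF difference of Pcna (the DNA replication clamp) was 0.26 (SE 0.09), with an adjusted p of 0.911 by limma. Its mean over the 5 groups was 0.08 (SE 0.07). Without TNF replicate 5 the TNF difference of Pcna was 0.17. Rad21, a cohesin subunit, had 0.20 (SE 0.08) in TNF and 0.19 (SE 0.08) in TNF + IL-6 Low, with adjusted p values of 0.911 and 0.511 by limma. Cenpa, the centromeric histone, had -0.11 (SE 0.12) in TNF and -0.26 (SE 0.11) in TNF + IL-6 Low, with an adjusted p of 0.511 by limma in that group.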

How the data were processed

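The authors summarised the arrays with RMA (version not given) and deposited log2 intensities, which were used as deposited, for transcript clusters that the platform annotation pairs with 1 gene (21218 of 35556; 1881 name several and 12457 none). R 4.3.3 and limma 3.58.1 were used: 1 linear model over 6 groups and 35 arrays, eBayes with an intensity trend, Benjamini-Hochberg adjustment over 15049 genes and a threshold of 0.05. The study's methods exclude 1 TNF array without naming it, and TNF replicate 4 was taken as that array. Control replicates 5 and 6 have differing mouse numbers in label and array name, and were kept as Control. The median SE of a log2 difference was 0.1, and the number of arrays limits the precision. The members and lists were chosen with earlier results of these data known. All 9 members, a fixed set of pathway genes and the 5 genes most like Incenp and Mad2l1, among those kept for that list, are named. The model was tested on simulated data. Promoter sequences are RefSeq's.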

Additional observations from a re-analysis of the deposited data

Results flagged for a closer look

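Of 54 groups of arrays examined for the members, 5 held an array far from the others of its group, where chance gives about 1 in 20. For Incenp, TNF replicate 6 was high at 5.96 against 5.71 to 5.78, and TNF + IL-6 Low replicate 4 was low at 5.29 against 5.56 to 5.72. For Birc5, Control replicate 2 was low at 4.59 against 4.92 to 5.11. Bub1 was high on IL-6 High replicate 3, at 3.39 against 2.88 to 3.07, and Ttk was high on TNF + IL-6 Low replicate 5, at 3.32 against 3.05 to 3.11, both under the intensity minimum.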

How the results depend on the processing

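Under 46 settings (35 that leave out 1 array and 11 others), 0 genes passed the threshold by limma in every comparison, as in the main setting. In TNF, 796 genes had an unadjusted p under 0.05, against 521 without TNF replicate 5, 1353 without TNF replicate 3 and 1563 with all 36 arrays. In TNF + IL-6 Low there were 1442, against 634 without its replicate 5, 2315 without its replicate 1 and 278 with all 36 arrays. Aurkb was no longer among those in TNF without TNF replicate 3, without Control replicate 5 or with all 36 arrays, and it was not tested at an intensity over 50. Leaving out 1 array gave TNF differences of 0.38 to 0.48 for Incenp and 0.23 to 0.31 for Mad2l1, as a description of values used in their choice. With the other Mad2l1 cluster alone, an alternative chosen after seeing the data, the differences were -0.02 in TNF, -0.01 at the high IL-6 dose, -0.04 in TNF + IL-6 Low and 0.04 for the mean of the 5 groups. Of 54 member differences, 16 changed sign when 1 array was left out and 12 in another setting. All of them were of the 7 genes not used in the choice. A stable sign of Incenp and Mad2l1 was favoured by their choice, so the sets are not compared on this. The TNF differences of Aurkb (-0.21) and Bub1 (-0.22) changed sign only with all 36 arrays. With all 36 arrays the TNF difference was 0.10 for Aurkb, 0.33 for Birc5, 0.46 for Cdca8, 0.47 for Bub1, 0.33 for Bub1b, -0.49 for Bub3 and 0.43 for Ttk, since TNF replicate 4 enters. Replicate numbers were not taken as pairs. Same-numbered arrays had deviations that correlated between -0.31 and 0.58 over the 15 pairs of groups. The mean r of a pair of groups ran from -0.07 to 0.14, and from 0.09 to 0.14 for the pairs with Control. With the replicate block, 0 genes passed in each comparison, with 805 against 796 at an unadjusted p under 0.05 in TNF. There were 256 against 211 such genes in IL-6 Low and 373 against 312 in IL-6 High. With TNFα added there were 1613 against 1442 at the low dose and 368 against 309 at the high dose. The mean of the 5 groups had 538 against 463, and the departure with IL-6 High had 596 against 603.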
